A study of Homo sapiens with 8 samples.

Results

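The genes described are 34 named genes of the unfolded protein response and of protein folding in the endoplasmic reticulum (ER). They were picked by name for their known roles, and the rule uses no measured value. The choice was made, however, with earlier results of these data known. All 34 were found, once each, among the 57773 genes of the deposited table, and 33 of them passed the filter on low values that left 11375 genes for testing. By role, 12 belong to the ATF6 arm, 9 to the IRE1-XBP1 arm, 7 to the PERK-ATF4 arm, 4 are folding enzymes of no single arm and 2 are CREB3-like factors.

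RNA was sequenced from ZR-75-1, an established human breast cancer line that carries the estrogen receptor and the androgen receptor. The cells had been kept for 72 h in phenol red-free medium with charcoal-stripped serum, which removes steroids. They were then given either 10 nM estradiol (E2) with 10 nM dihydrotestosterone (DHT), a potent androgen, or 10 nM E2 alone, for 4 h, with 4 libraries per treatment. Both treatments share the line, the steroid depletion and the E2, and no library came from cells without hormone, so the comparison measures what DHT adds to E2. Only 1 cell line was studied. The records give more than 1 passage within each treatment, but no label states how the replicates were grown, so part of the spread behind the p-values may be technical.

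The labels of the libraries conflict in 4 of the 8 records, where the record title and the library name give different treatments. The library name, under which the values are listed, was used for the groups. Read this way, the records give passages 9 and 11 to E2+DHT and passages 8 and 10 to E2, and each passage holds 1 treatment only. The passage field goes with the titles, however, whose replicates 1 to 4 in either treatment carry passages 8, 9, 10 and 11. The passage of a library is therefore as uncertain as its title. The library sizes behind the values were 19599217 to 34616639 reads for E2+DHT and 19955045 to 31913885 reads for E2. FKBP5, a co-chaperone of steroid receptors and a widely used androgen target, checked the grouping. Its level was 1.91 to 2.55 RPKM (reads scaled by exon length and library size) in E2+DHT and 0.652 to 0.841 RPKM in E2, with no overlap, and it rose by 1.07 ± 0.09 on the log2 scale (estimate ± SE, n = 4 libraries each, limma with Benjamini-Hochberg adjustment, adjusted p = 0.000727). Grouped by the record titles instead, its log2 difference was -0.029 (adjusted p = 1.00), and with the 4 records on which the labels agree it was 1.04 (adjusted p = 0.894). All 8 luminal breast markers were present at 3.17 to 1007 RPKM. Basal markers stayed at or under 0.0548 RPKM. Of the fibroblast and immune markers, COL1A1 was at 0.680 to 1.06 RPKM and LYZ at 0.318 to 0.704 RPKM. The other markers of both lists, and the endothelial markers found, stayed at or under 0.120 RPKM. Of 4 markers of plasma cells, a cell type with a very large ER, IGJ and TNFRSF17 were listed at 0. SDC1, which epithelial cells also express, was at 24.3 to 41.9 RPKM and MZB1 at 1.96 to 3.45 RPKM. In bulk RNA, fewer cells of a type and less RNA per cell cannot be told apart.

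Secreted and membrane proteins fold in the ER, and when unfolded proteins build up there, 3 sensors in its membrane start the unfolded protein response. ATF6 moves to the Golgi, is cut there, and its freed part switches on chaperone genes. IRE1, encoded by ERN1, splices the XBP1 transcript so that it encodes an active factor, and XBP1 then switches on genes of ER growth, translocation and degradation. PERK, encoded by EIF2AK3, phosphorylates eIF2α, which slows most translation while ATF4 is translated more. In breast epithelium XBP1 is also a known estrogen receptor target gene and a luminal gene, and in prostate cancer cells androgen has been linked to the IRE1 branch and to CREB3L4, also called AIbZIP. A table of RNA per gene shows the amount of each transcript. It does not show XBP1 splicing, the cutting of ATF6, or the phosphorylation of PERK and eIF2α.

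The ER stress response element (ERSE) is the site of ATF6 and the CCAAT factor NF-Y at chaperone genes, so the promoters of the genes were searched for it. The sequences are from RefSeq on GRCh38.p14, a later build than the hg19 of the deposited values, and each covers 250 bases before to 50 bases after an annotated gene start. A promoter was found for 33 of the 34 genes (all but PDIA3). On either strand, 7 of the 33 held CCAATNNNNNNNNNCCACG (21.2%), against 25 of 27305 genes in the whole promoter table (0.0916%). The 7 are 5 ATF6-arm genes, CANX and XBP1. ERSE was first described in promoters of such chaperone genes, so this share is not independent of how the motif was defined. A match is a description of the letters and does not show that a factor binds there.

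The lines show each ERSE with 12 bases on both sides, in the gene's own orientation, 5′ to 3′, so that the shared spacing can be compared. Capitals mark the fixed letters, CCAAT and CCACG, or ATTGG and CGTGG where the motif lies on the other strand.
HSPA5: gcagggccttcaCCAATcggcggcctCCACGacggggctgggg
HSP90B1, far site: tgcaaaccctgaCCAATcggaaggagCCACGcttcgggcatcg
HSP90B1, near site: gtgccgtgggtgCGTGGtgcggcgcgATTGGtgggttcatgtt
PDIA6: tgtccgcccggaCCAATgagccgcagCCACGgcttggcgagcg
CALR: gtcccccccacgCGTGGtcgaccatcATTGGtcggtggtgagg
CRELD2: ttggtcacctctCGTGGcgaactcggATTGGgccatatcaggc
CANX: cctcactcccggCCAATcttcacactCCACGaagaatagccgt
XBP1: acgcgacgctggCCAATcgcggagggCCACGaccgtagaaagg

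These stretches lie at chr9:125241379-125241421 on the minus strand for HSPA5, at chr2:10812841-10812883 on the minus strand for PDIA6 and at chr22:28800591-28800633 on the minus strand for XBP1. On the plus strand they lie at chr12:103930204-103930246 and chr12:103930309-103930351 for HSP90B1, chr19:12938372-12938414 for CALR, chr22:49918542-49918584 for CRELD2 and chr5:179698766-179698808 for CANX. The motif began 52 bases before the start in XBP1, 66 in HSPA5, 80 in CRELD2 and 86 in PDIA6. In HSP90B1 it began 194 and 89 bases before the start, and in CALR 225 bases before it. CANX has the same site upstream of 3 annotated starts, at 189, 151 and 9 bases.

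A shorter form, ERSE-II, with the letters ATTGGNCCACG, was found in HERPUD1, HYOU1 and SDF2L1, which are 9.09% of the 33 genes, against 19 genes or 0.0696% of the whole table. These sequences are shown because HYOU1 carries the element at 2 places. Capitals again mark the fixed letters, here ATTGG and CCACG or, on the other strand, CGTGG and CCAAT.
HERPUD1: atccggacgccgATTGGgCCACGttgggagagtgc
HYOU1, far site: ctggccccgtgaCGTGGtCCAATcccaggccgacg
HYOU1, near site: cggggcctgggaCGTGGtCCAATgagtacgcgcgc
SDF2L1: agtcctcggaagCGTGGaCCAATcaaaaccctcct

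They lie at chr16:56932013-56932047 on the plus strand for HERPUD1, at chr11:119057368-119057402 and chr11:119057262-119057296 on the minus strand for HYOU1, and at chr22:21642102-21642136 on the plus strand for SDF2L1. No promoter among the 33 held both ERSE and ERSE-II, so together they mark 10 genes. The XBP1-bound element UPRE, searched as TGACGTGG, was found in DNAJC10 and HYOU1 (6.06% of the 33 genes, against 0.927% of all). In HYOU1 it overlaps the far ERSE-II site by part of its letters.

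ATF4 joins a partner at the CARE site, searched as TGATGNAA. This short form was chosen after a form longer by 1 base matched no gene of the 33, so its share is not independent of these genes. The search does not show that other longer forms of the site are absent. TGATGNAA was present in ASNS, CHAC1 and HERPUD1, 9.09% of the 33 genes against 4.46% of all, so this short motif is frequent by itself. The ASNS and CHAC1 sites are shown because both genes are known ATF4 targets, with the fixed letters TGATG and AA, or TT and CATCA, in capitals.
ASNS: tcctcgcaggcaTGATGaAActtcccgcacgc
CHAC1: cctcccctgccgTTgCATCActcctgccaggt

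The ASNS stretch is chr7:97872457-97872488 on the minus strand and the CHAC1 stretch is chr15:40953250-40953281 on the plus strand. The palindromic androgen response element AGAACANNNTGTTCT was in none of the 33 promoters and in 1 gene of the whole table, which says only that these letters are not in these windows.

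**Figure D1:**
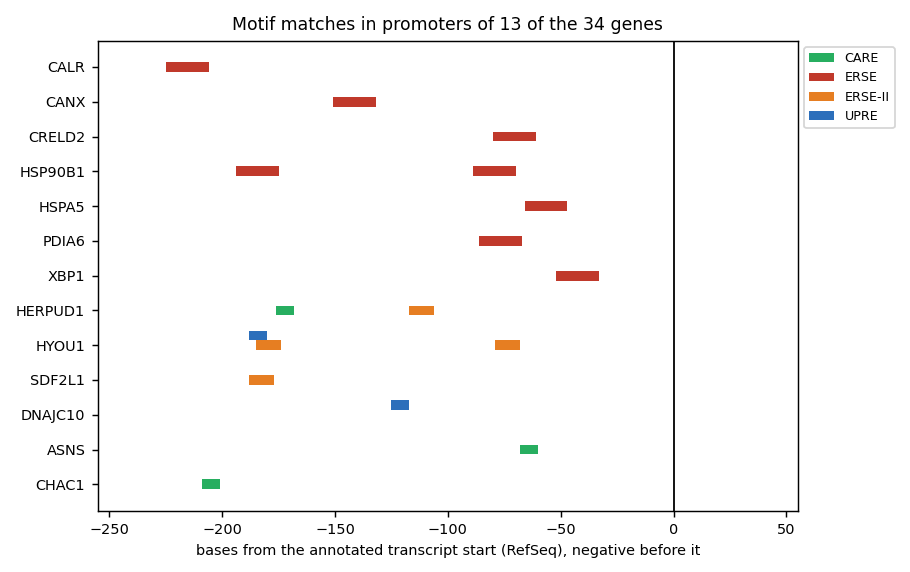
Position of each searched motif in the promoters of the 13 genes that hold at least 1 of them, with distance from the annotated start in bases on the horizontal axis and 1 row per gene. CANX is drawn for the middle of its 3 starts. ERSE begins between 225 and 52 bases before the start in 7 genes, and ERSE-II is in 3 other genes.

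DHT added to E2 for 4 h moved none of the genes past the threshold. Of the 33 tested genes 0 rose and 0 fell (limma on log2 of RPKM plus a pseudocount of 0.5, Benjamini-Hochberg adjusted p under 0.05), and over all tested genes the calls were 20 higher and 1 lower, or 0.185% of 11375. With the libraries scaled to the same RPKM sum those calls were 18 higher and 4 lower. No gene of the 33 had an unadjusted p under 0.05, where 4.47% of all tested genes did, and none had groups without overlap, where 3.4% of all did. By voom, which models the precision of read counts, on the reads recovered from the values, 0 of the 33 passed as well. The estimates of 20 of the 33 were above 0, beside 6402 of the 11375 over all tested genes. The median of the 33 was 0.020 on the log2 scale, and the median over all tested genes was 0.014. The counts by arm given below can be read against the same 6402 of 11375. The balance of the 33 depends on the scaling and on the fit. With the libraries scaled to the same RPKM sum 6 of the 33 were above 0, and the medians were -0.04 for the 33 and -0.05 for all. With the share of reads in exons as a covariate 8 of the 33 were above 0, and the medians were -0.06 for the 33 and -0.07 for all. Without E2 replicate 2 it was 11 of the 33. Among the 33, only SYVN1, PPP1R15A and CREB3L1 kept their sign under all alternatives in which they were tested. Some of these values were close to 0. SYVN1 was at 0.0016 with groups from the record titles. With the exon share as a covariate PPP1R15A was at 0.026 and CREB3L1 at -0.027.

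The size of change that the data allow was small for every tested gene. The estimates ran from -0.09 for CREB3L1 to 0.21 for SYVN1 on the log2 scale. All 33 95% confidence intervals of the fold lay inside 1.5-fold in both directions, and 26 of the 33 lay inside 1.25-fold. Over all 11375 tested genes, 10979 and 7489 intervals did so. The lowest bound among the genes was a fold of 0.786 (DDIT3) and the highest 1.35 (SYVN1), for E2+DHT over E2. A p above the threshold does not show that the treatments are alike, and these intervals state how large a difference remains possible. All folds are on the log2(RPKM + 0.5) scale, which understates the change of low genes such as CREB3L1, ERN1, DDIT3 and SYVN1. With a pseudocount of 0.1 the lowest and highest bounds of the 33 were 0.752 and 1.41. By voom they were 0.719 and 1.43, and in both fits all 33 intervals stayed inside 1.5-fold.

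**Figure D2:**
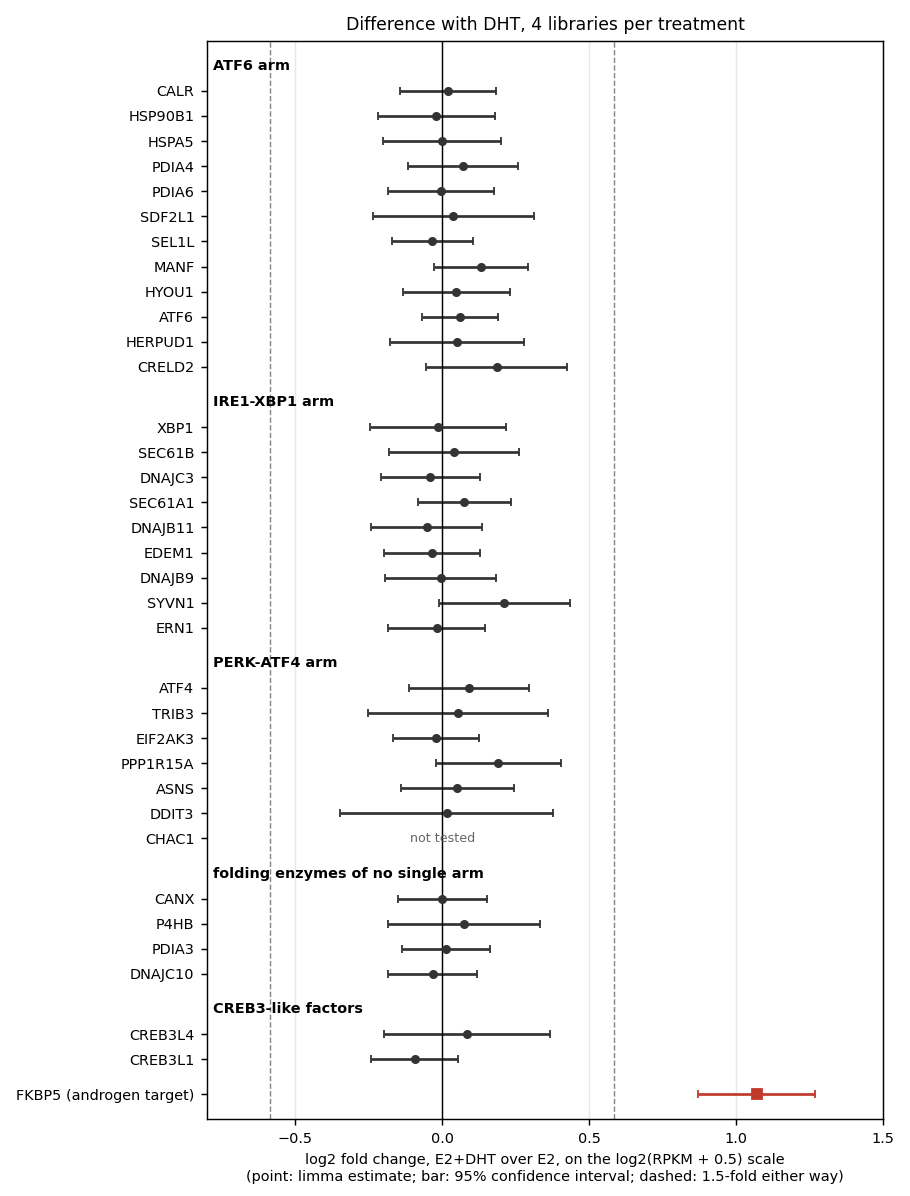
Estimated log2 fold change of E2+DHT over E2 for the 33 tested genes, grouped by arm, with 95% confidence intervals from limma on log2(RPKM + 0.5), n = 4 libraries per treatment. Every interval of the 33 includes 0 and lies inside 1.5-fold (dashed lines), with estimates between -0.09 and 0.21, while FKBP5, at the bottom, stands at 1.07.

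The 3 stress sensors were measured at different levels and none passed the threshold between treatments. ATF6 (chr1:161736084-161933860, plus strand, hg19) had 12.2, 12.4, 12.5 and 12.6 RPKM in E2+DHT and 11.6, 11.7, 12.5 and 11.7 RPKM in E2. Only E2 replicate 3 lay within the E2+DHT range, and the fold was 1.04, with a 95% interval of 0.955 to 1.14. EIF2AK3, the PERK kinase (chr2:88856259-88927094, minus strand), had 5.05, 4.58, 4.79 and 4.74 RPKM in E2+DHT and 5.20, 4.50, 4.97 and 4.82 RPKM in E2. Its fold was 0.985 (0.890 to 1.09). ERN1, the IRE1 kinase and nuclease (chr17:62116502-62208179, minus strand), had 1.60, 1.40, 1.38 and 1.64 RPKM in E2+DHT and 1.60, 1.40, 1.59 and 1.54 RPKM in E2, a fold of 0.987 (0.880 to 1.11). In every library ATF6 was above EIF2AK3 and EIF2AK3 above ERN1, per length. The ratio of ATF6 to EIF2AK3 was 2.60 ± 0.125 in E2+DHT and 2.45 ± 0.165 in E2, and that of EIF2AK3 to ERN1 was 3.20 ± 0.250 in E2+DHT and 3.18 ± 0.0618 in E2 (mean ± SD, n = 4 each).

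In the ATF6 arm, 8 of the 12 estimates were above 0 and the median was 0.04 on the log2 scale. HSPA5, also called BiP, is the main ER chaperone and holds the sensors inactive in unstressed cells. It lies at chr9:127997132-128003609 on the minus strand. Its level was 34.7, 31.3, 29.4 and 35.8 RPKM in E2+DHT and 35.2, 29.8, 30.7 and 35.7 RPKM in E2. Both treatments spanned almost the same range, and the means were 32.8 ± 2.97 RPKM in E2+DHT and 32.8 ± 3.05 RPKM in E2 (SD, n = 4 each). The log2 difference was -0.0013 ± 0.09 (SE) and the fold interval 0.870 to 1.15. HSP90B1, or GRP94, the ER member of the HSP90 family, had 84.1, 109.6, 99.1 and 94.2 RPKM in E2+DHT and 90.7, 101.1, 96.9 and 102.2 RPKM in E2, a fold of 0.986 (0.859 to 1.13). Its lowest and its highest library were both E2+DHT libraries. CALR, the lectin chaperone calreticulin, had 125.7, 131.4, 127.9 and 126.7 RPKM in E2+DHT and 131.8, 116.0, 136.2 and 121.5 RPKM in E2. The E2+DHT values of CALR all lay inside the range of the E2 values, and its fold was 1.01 (0.905 to 1.14).

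MANF and CRELD2, small ER proteins released or induced under stress, had the highest estimates of this arm. MANF had 17.0, 18.5, 16.6 and 17.0 RPKM in E2+DHT and 15.5, 15.8, 17.2 and 14.3 RPKM in E2. Only E2 replicate 3 reached the E2+DHT range, and the log2 difference was 0.13 ± 0.07 (SE; limma, unadjusted p = 0.0974). CRELD2 had 4.93, 4.90, 4.54 and 4.98 RPKM in E2+DHT and 4.93, 3.35, 4.79 and 3.89 RPKM in E2. Its E2+DHT libraries lay close together, while E2 replicates 2 and 4 were lower than every other library, and the log2 difference was 0.19 ± 0.11 (SE; limma, unadjusted p = 0.115). For both, limma's Benjamini-Hochberg adjusted p was 0.999.

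In the other 6 genes of the ATF6 arm the means differed by less than 1 SD of the E2 libraries. HYOU1, a large HSP70-like chaperone, averaged 13.7 ± 0.560 RPKM in E2+DHT and 13.3 ± 1.41 RPKM in E2. The disulfide isomerases PDIA4 and PDIA6 averaged 30.9 ± 1.51 and 25.1 ± 1.12 RPKM in E2+DHT, against 29.4 ± 3.05 and 25.3 ± 2.50 RPKM in E2. SDF2L1, which works with ER DnaJ proteins, averaged 21.0 ± 1.57 RPKM in E2+DHT and 20.6 ± 3.92 RPKM in E2. The degradation factors HERPUD1 and SEL1L, which serve the ubiquitin ligase of the ER membrane, averaged 8.67 ± 0.984 and 19.8 ± 0.300 RPKM in E2+DHT and 8.37 ± 1.02 and 20.3 ± 1.05 RPKM in E2 (SD, n = 4 each). SEL1L had a fold interval of 0.889 to 1.07.

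The 10 tested genes with ERSE or ERSE-II can be read against the same comparison. None passed the threshold, 6 of the 10 estimates were above 0, and the median was 0.010 on the log2 scale. Their fold intervals ran from 0.844 to 1.34, and 9 of the 10 lay inside 1.25-fold, all but CRELD2.

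In the IRE1-XBP1 arm 3 of the 9 estimates were above 0, with a median of -0.01 on the log2 scale. XBP1 (chr22:29190543-29196585, minus strand) encodes the factor whose transcript IRE1 splices. It had 383.6, 319.0, 320.2 and 308.5 RPKM in E2+DHT and 384.6, 309.2, 340.6 and 310.4 RPKM in E2. Replicate 1 was the highest library in both treatments and the other libraries overlapped. The means were 332.8 ± 34.3 RPKM in E2+DHT and 336.2 ± 35.4 RPKM in E2 (SD, n = 4 each), and the fold was 0.990 (0.844 to 1.16). The value sums the spliced and unspliced forms.

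SYVN1, the ubiquitin ligase HRD1 that marks misfolded ER proteins for degradation, had the largest estimate of the 33. It lies at chr11:64889252-64902004 on the minus strand, and its level was 3.13, 2.40, 2.51 and 3.16 RPKM in E2+DHT and 2.61, 2.14, 2.47 and 2.14 RPKM in E2. E2+DHT replicates 1 and 4 were above every E2 library and replicates 2 and 3 were inside the E2 range. The log2 difference was 0.21 ± 0.10 (SE, n = 4 each; limma, unadjusted p = 0.0600, Benjamini-Hochberg adjusted p = 0.999). SYVN1 overlaps FAU, a gene on the same strand at 40.6 RPKM, and MRPL49 on the other strand at 2.86 RPKM. How reads of shared bases were counted is not given in the sources used here, and the part of these neighbours in the SYVN1 value was not tested.

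The other members of this arm serve as ER DnaJ co-chaperones or in translocation and degradation. DNAJB9, which returns IRE1 to its inactive state with BiP, averaged 6.50 ± 0.205 RPKM in E2+DHT and 6.55 ± 0.817 RPKM in E2. DNAJB11 averaged 8.60 ± 0.509 RPKM in E2+DHT and 8.96 ± 0.959 RPKM in E2. DNAJC3, or p58IPK, an inhibitor of PERK, averaged 23.6 ± 1.28 RPKM in E2+DHT and 24.4 ± 1.91 RPKM in E2. All 3 co-chaperones had estimates slightly below 0 and overlapping libraries. EDEM1, a mannosidase-like factor that passes glycoproteins to degradation, averaged 7.69 ± 0.393 RPKM in E2+DHT and 7.90 ± 0.612 RPKM in E2. SEC61A1 and SEC61B, subunits of the channel through which proteins enter the ER, averaged 19.3 ± 0.678 and 32.5 ± 1.17 RPKM in E2+DHT and 18.3 ± 1.41 and 31.8 ± 4.47 RPKM in E2 (SD, n = 4 each).

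The PERK-ATF4 arm had 5 of 6 tested estimates above 0 and a median of 0.05 on the log2 scale. ATF4 (chr22:39915700-39918691, plus strand) encodes the factor translated when eIF2α is phosphorylated. Its RNA was at 43.2, 39.0, 43.2 and 40.8 RPKM in E2+DHT and 41.2, 34.3, 44.9 and 36.1 RPKM in E2. The E2 libraries enclosed the E2+DHT libraries at both ends, and the log2 difference was 0.09 ± 0.09 (SE, fold interval 0.926 to 1.23). PPP1R15A, or GADD34, which brings the phosphatase back to eIF2α, lies at chr19:49375649-49379314 on the plus strand. It had 2.55, 2.62, 2.94 and 2.47 RPKM in E2+DHT and 2.17, 1.99, 2.79 and 2.12 RPKM in E2. All E2+DHT libraries were above 3 of the 4 E2 libraries, and E2 replicate 3 lay inside their range. The log2 difference was 0.19 ± 0.10 (SE; limma, unadjusted p = 0.0708, Benjamini-Hochberg adjusted p = 0.999).

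DDIT3, the factor CHOP that promotes death in lasting ER stress, was low. It had 2.31, 1.91, 1.65 and 2.45 RPKM in E2+DHT and 2.85, 1.87, 2.21 and 1.41 RPKM in E2, from 34 to 107 reads per library. Its lowest and its highest library were both E2 libraries. The means were 2.08 ± 0.366 RPKM in E2+DHT and 2.08 ± 0.605 RPKM in E2 (SD, n = 4 each), and the fold interval was 0.786 to 1.30. DDIT3 overlaps MARS, on the opposite strand at 8.19 RPKM. The library kit marks strand, but whether the counting used it is not given in the sources used here.

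TRIB3, a pseudokinase induced by ATF4 and CHOP, averaged 16.0 ± 0.222 RPKM in E2+DHT and 15.7 ± 3.41 RPKM in E2. Its E2+DHT libraries were within 15.7 to 16.3 RPKM, whereas the E2 libraries ran from 11.1 in replicate 2 to 18.8 in replicate 3. ASNS, asparagine synthetase, averaged 2.47 ± 0.150 RPKM in E2+DHT and 2.37 ± 0.291 RPKM in E2. CHAC1, which breaks down glutathione and is an ATF4 target, was under the filter and not tested. It had 9, 7, 12 and 14 reads in E2+DHT and 15, 8, 11 and 9 reads in E2, or 0.127 to 0.214 RPKM in E2+DHT and 0.153 to 0.269 RPKM in E2. At so few reads a moderate difference in CHAC1 was not detectable.

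The folding enzymes of no single arm were abundant and close in both treatments. CANX, the membrane lectin chaperone calnexin, averaged 124.1 ± 2.59 RPKM in E2+DHT and 124.1 ± 6.73 RPKM in E2. P4HB, or PDI, averaged 125.3 ± 7.37 RPKM in E2+DHT and 120.2 ± 20.1 RPKM in E2. PDIA3, which acts on glycoproteins with calnexin and calreticulin, averaged 76.0 ± 2.98 RPKM in E2+DHT and 75.4 ± 3.63 RPKM in E2. The reductase DNAJC10 averaged 11.71 ± 0.783 RPKM in E2+DHT and 11.97 ± 0.512 RPKM in E2 (SD, n = 4 each). Their estimates had a median of 0.0062 on the log2 scale, and 3 of the 4 were above 0.

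The CREB3-like factors are membrane-bound like ATF6 and are cut in the same way. CREB3L4 lies at chr1:153940010-153946839 on the plus strand, and its level was 67.9, 58.5, 58.2 and 51.7 RPKM in E2+DHT and 68.1, 48.7, 60.1 and 47.2 RPKM in E2. The treatments overlapped over most of their range, and the fold was 1.06 (0.873 to 1.29; limma, unadjusted p = 0.514). CREB3L4 overlaps JTB (135.9 RPKM) and SLC39A1 (62.7 RPKM), both on the opposite strand, and neither passed the threshold (limma with Benjamini-Hochberg adjustment, adjusted p = 0.999 each). Whether reads of these neighbours enter the CREB3L4 value was not tested. CREB3L1 had 1.01, 0.935, 0.912 and 0.947 RPKM in E2+DHT and 1.04, 1.11, 0.956 and 1.09 RPKM in E2. It was the lowest estimate of the 33, at -0.09 ± 0.07 on the log2 scale (SE; limma, unadjusted p = 0.192), and E2+DHT replicate 1 lay inside the E2 range. The ratio of CREB3L4 to CREB3L1 was 62.1 ± 5.34 in E2+DHT and 53.9 ± 11.9 in E2 (SD, n = 4 each).

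Levels per length differed far more between the genes than between the treatments. XBP1 averaged 334.5 RPKM over the 8 libraries, which placed it at rank 32 of the 11375 tested genes. CALR at 127.2, CANX at 124.1 and P4HB at 122.7 RPKM followed and could not be ordered: CALR was above CANX in 6 of 8 libraries, and CANX above P4HB in 4 of 8. HSP90B1 (97.2 RPKM), PDIA3 (75.7 RPKM), CREB3L4 (57.5 RPKM) and ATF4 (40.3 RPKM) came next, and HSPA5 at 32.8 RPKM had rank 674. At the low end stood ERN1 (1.52 RPKM), CREB3L1 (1.00 RPKM) and CHAC1 (0.194 RPKM). Several ordered pairs kept their direction in all 8 libraries. HSP90B1 exceeded HSPA5 with a ratio of 2.98 ± 0.534 in E2+DHT and 3.00 ± 0.355 in E2. CANX exceeded HSPA5 with a ratio of 3.81 ± 0.402 in E2+DHT and 3.81 ± 0.480 in E2. In total RNA of factors downstream of the sensors, XBP1 to ATF4 had a ratio of 8.01 ± 0.669 in E2+DHT and 8.63 ± 0.759 in E2. ATF4 to DDIT3 had a ratio of 20.5 ± 4.09 in E2+DHT and 19.7 ± 4.63 in E2 (SD, n = 4 each). These ratios show neither XBP1 splicing nor ATF4 translation, so they do not measure the activity of the arms.

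**Figure D3:**
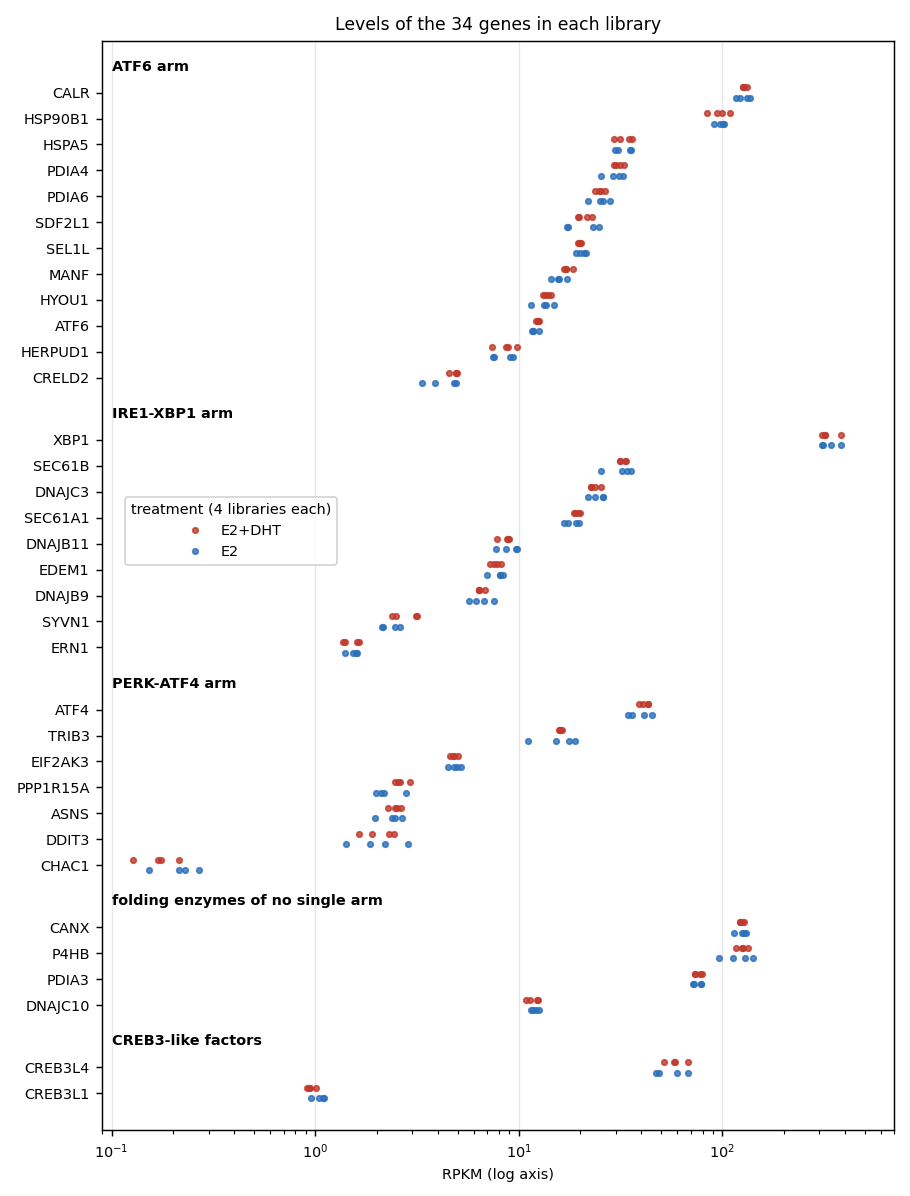
RPKM of each of the 34 genes on a log axis, with 1 point per library, E2+DHT above E2 in each row, and the genes grouped by arm and ordered by level. XBP1 at 308.5 to 384.6 RPKM stands above all other genes shown, CHAC1 lies lowest, and the 2 treatments overlap in every row.

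The spread over the 8 libraries also differed between the genes. ATF6 (a coefficient of variation of 3.48%), SEL1L (3.79%), CANX (3.81%) and PDIA3 (4.08%) varied least. DDIT3 (22.3%), SYVN1 (15.3%), TRIB3 (14.2%), CREB3L4 (13.9%) and PPP1R15A (13.7%) varied most among the tested genes, and the highest library of DDIT3 held 2.02 times its lowest. Many of the genes shared a library. In E2 replicate 2, 28 of the 33 were below their own mean, by -0.14 on the log2 scale on average, and the mean over all tested genes there was -0.13. In E2 replicate 3, 4 of the 33 were below their mean, with an average of 0.09, against 0.08 over all tested genes. In both libraries the average of the 33 lay close to that of all tested genes. E2 replicate 2 also had the lowest share of reads in exons, at 78.3%, against 80.0% to 84.8% in the other libraries. The part of this share in the deviations was not tested. As a covariate in the comparison of treatments, it changed the estimates above 0 from 20 to 8 of the 33. The 6 tested genes of the PERK-ATF4 arm had averages of 0.0043 to 0.08 in the E2+DHT libraries and of 0.09, -0.23, 0.14 and -0.13 in E2 replicates 1 to 4. Over all tested genes the averages were -0.0080 to 0.03 in E2+DHT and 0.03, -0.13, 0.08 and -0.03 in E2 replicates 1 to 4. The directions in the E2 libraries were thus the same over all tested genes.

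**Figure D4:**
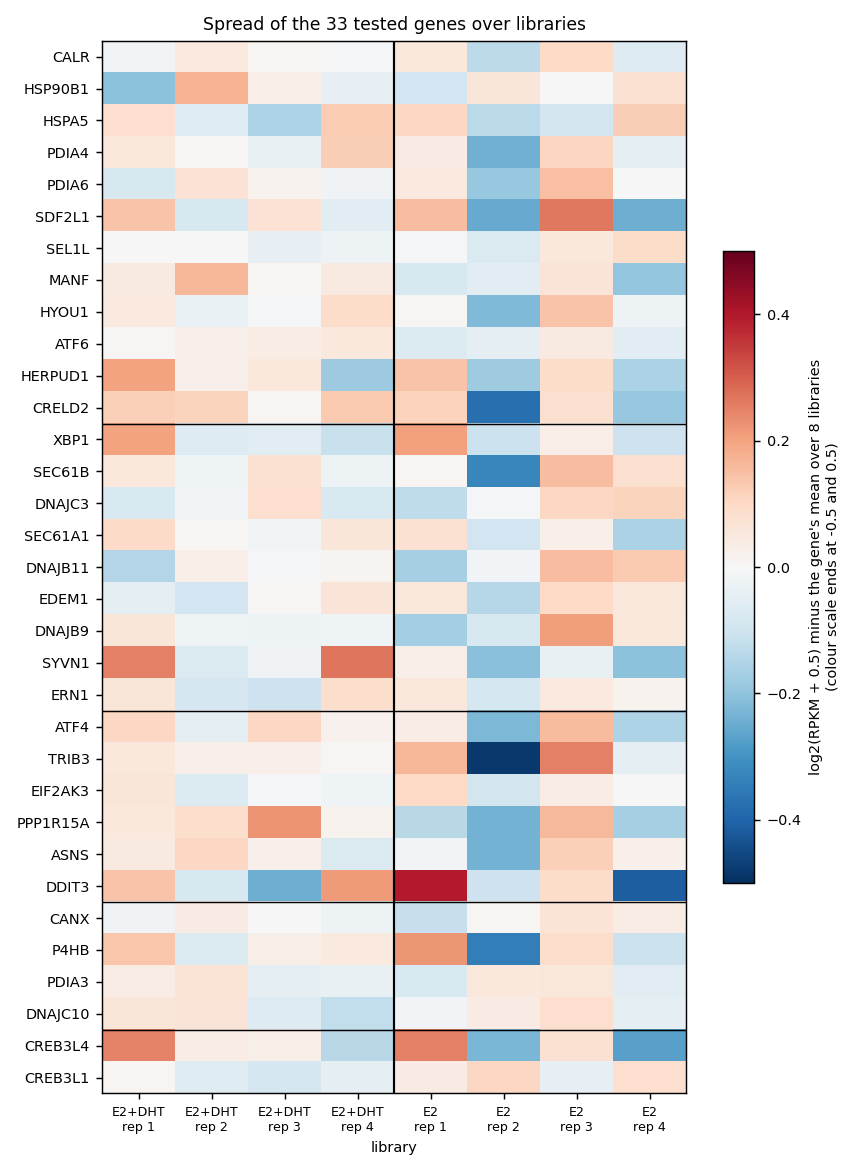
Heat map of each library's deviation from the gene's mean over the 8 libraries, on the log2(RPKM + 0.5) scale, with the 33 tested genes in rows grouped by arm, the E2+DHT libraries left of the E2 libraries, and colours ending at -0.5 and 0.5. E2 replicate 2 is below the mean in 28 of the 33 genes and E2 replicate 3 in 4 of them.

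By the passages in the records, which go with the titles that were not used for the groups, E2+DHT libraries 2 and 4 and E2 libraries 2 and 4 came from later passages than libraries 1 and 3 of their treatment. EIF2AK3, ATF4, XBP1, HERPUD1, SDF2L1 and TRIB3 were lower in both later libraries than in both earlier ones, in both treatments. These are 6 of the 34 genes, and none was higher in this way. Over all tested genes 12.5% showed the lower pattern. The pattern was read from the values and not tested. If the passages of the title replicates 1 to 4 belong to the library replicates of the same number, the later libraries would be replicates 3 and 4, and this split would not be one of passage.

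Beyond the 34, a list of 107 other genes of ER stress, folding, translocation and degradation was examined, and all 107 were in the table, 102 of them tested. Of the 102, 0 rose and 0 fell. At an unadjusted p under 0.05 (limma) 1 was higher and 1 lower, where 4.47% of all tested genes were in either direction. The estimates of 69 were above 0, and the median of the 102 was 0.029 on the log2 scale. Over all tested genes, 6402 of 11375 estimates were above 0 and the median was 0.014. By group, 19 of 28 ATF4 and integrated stress response genes, 13 of 22 translocation genes, 10 of 17 degradation genes, 20 of 26 folding genes and 7 of 9 genes of the sensors and their regulation had estimates above 0. The medians of these groups lay between 0.0097 and 0.056 on the log2 scale. For the tested genes among the 34, the balance changed when the libraries were scaled to the same RPKM sum. Whether the counts of the 102 change in the same way was not tested, so they do not show a general rise of the pathway.

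PSPH and PDIA5 were the only genes of the 102 whose treatments did not overlap. These 2 of 102 are a smaller share than the 3.4% of all tested genes, so they do not set the list apart. PSPH, the last enzyme of serine synthesis, had 1.82, 1.64, 1.73 and 1.70 RPKM in E2+DHT and 2.28, 2.09, 2.25 and 2.33 RPKM in E2. Every E2+DHT library was below every E2 library, and the log2 difference was -0.30 ± 0.06 (SE, n = 4 each; limma, unadjusted p = 0.000827, Benjamini-Hochberg adjusted p = 0.157). PDIA5, a disulfide isomerase, had 2.48, 2.29, 2.47 and 2.36 RPKM in E2+DHT and 2.09, 2.01, 2.01 and 2.16 RPKM in E2. Every E2+DHT library was above every E2 library, and the log2 difference was 0.18 ± 0.06 (SE, n = 4 each; limma, unadjusted p = 0.0165, Benjamini-Hochberg adjusted p = 0.799). Neither passed the threshold. Both are named, with the genes that follow, because they had the smallest p of their group in each direction.

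The remaining genes named by that rule had overlapping libraries and an adjusted p of 0.999 (limma, Benjamini-Hochberg). Of the stress factors, ATF5 and ATF3 had log2 differences of 0.22 and 0.13, and CEBPB, a partner of CHOP, had -0.26. CEBPB averaged 5.89 ± 0.530 RPKM in E2+DHT and 7.24 ± 1.28 RPKM in E2 (SD, n = 4 each). In translocation and trafficking, SERP1, which guards nascent membrane proteins, and KDELR1, the receptor that returns chaperones to the ER, had log2 differences of 0.17 and 0.10. SSR1 and SEC11C, of the translocon and the signal peptidase, had -0.08 and -0.06. In degradation, DERL3 and EDEM2 had 0.13 and 0.09, and EDEM3 and the ubiquitin ligase RNF139 had -0.10 and -0.06. Among folding enzymes, FKBP2, a proline isomerase of the ER, averaged 9.41 ± 0.739 RPKM in E2+DHT and 8.20 ± 0.852 RPKM in E2, while FKBP14 and the glycoprotein glucosyltransferase UGGT2 had log2 differences of -0.12 and -0.11. Near the sensors, ATF6B, a relative of ATF6, and WFS1, an ER membrane protein, had 0.17 and 0.15. BCL2L11, the cell death factor BIM, and MBTPS2, which cuts ATF6, had -0.19 and -0.06.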

How the data were processed

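RNA from 8 libraries of ZR-75-1 cells, 4 with E2+DHT and 4 with E2, was compared. Libraries were made with a stranded kit from total RNA and sequenced from both ends, per the labels' protocols. The authors deposited RPKM values for 57773 genes in 1 table, with hg19 coordinates per the submitters' processing notes. Which aligner, counter, strand setting and annotation were used is not given in the sources used here. Whole reads were recovered from the RPKM values for 99.996% of the 27594 genes above 0, at a tolerance of 0.0001 reads. Each library's denominator, 19599217 to 34616639 reads, sets the precision. The mitochondrial rRNA MT-RNR2 held 20.1% to 24.5% of them.

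Genes with a mean of at least 0.5 RPKM were tested as log2(RPKM + 0.5) with limma 3.58.1 (R 4.3.3), with an intensity trend, no replicate block, and Benjamini-Hochberg adjustment over all 11375 genes at 0.05. The steps were tested on simulated data. Tables, motif searches and figures used Python 3.11.15, pandas 2.3.3, NumPy 2.4.6 and matplotlib 3.10.9. The members and the gene lists were chosen with earlier results of these data known. Named genes were all 34 members and, of each other list, the 2 with the smallest p in each direction. Alternatives were other pseudocounts, filters and scalings, voom on recovered reads, a replicate block, other readings of the labels, the exon share, passage, and leaving out each library.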

Additional observations from a re-analysis of the deposited data

Results flagged for a closer look

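In 74 sets of 4 libraries (the 34 genes, the library size, the share of reads in exons and the share of MT-RNR2, per treatment), 2 values stood apart by Dixon's criterion for 4 samples, and chance gives about 1 in 20. XBP1 was at 383.6 RPKM in E2+DHT replicate 1, against 308.5 to 320.2 RPKM in the other E2+DHT libraries, a gap of 0.845 of the whole range. E2 replicate 1 was also high in XBP1, at 384.6 RPKM. DNAJB9 was at 6.80 RPKM in E2+DHT replicate 1, against 6.38 to 6.40 RPKM in the other E2+DHT libraries, a gap of 0.947 of the range. E2 libraries of DNAJB9 ran from 5.72 to 7.60 RPKM, so this value lay inside them.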

How the results depend on the processing

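The count of the 33 genes past the threshold was 0 under all 22 alternatives run (limma or voom with Benjamini-Hochberg adjustment). At an unadjusted p under 0.05 it was 0 to 6. The 6 came under a trend over the record passages, where 1887 of all 11375 tested genes were under 0.05 (limma). The smallest adjusted p of the 33 in any alternative was 0.246, for PPP1R15A under that trend. The fold intervals of all genes tested stayed inside 1.5-fold except with the exon share as a covariate (32 of 33, not DDIT3) and with the 4 records on which both labels agree (27 of 33). Of 724 values of single genes, 691 moved by less than 1 SD between replicates and 111 had another sign than the main value, none of them past the threshold. FKBP5 passed wherever it was tested, except with the record titles, where its log2 difference was -0.029, and with the records whose labels agree. The other pathway genes had 0 past the threshold in any setting, and the adjusted p of PSPH ran from 0.0841 to 1.00.

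Over all tested genes, 21 passed. The count was 5 with no filter on low values, 33 with median centring, 2 with groups from the record titles, 0 with only the 4 concordant records (by limma, where 286 genes had an unadjusted p under 0.05; voom was not run on these), 5 with the exon share as a covariate, and 6 to 18 when 1 library was left out (18 without E2 replicate 1, and 6 to 11 without each of the others). Scaling to the same RPKM sum gave 18 higher and 4 lower, against 20 and 1. Passage terms, chosen after seeing the data, gave 54 with the later passages of each treatment as a term and 51 as a trend. With a replicate block the count was 72 and 0 of the 33 passed. In that fit SYVN1 and PPP1R15A had an unadjusted p under 0.05 (limma), where 899 of all 11375 tested genes did. The numbers were not taken as pairs, since the labels do not state that libraries of equal number belong together. The deviations of same-numbered libraries correlated at 0.703, 0.455, 0.121 and 0.0833. All 4 were above 0, but not all 4 exceeded 0.1, the bar used for pairs. E2+DHT replicates 1, 2 and 4 correlated best with the E2 replicate of their own number, and E2+DHT replicate 3 with E2 replicate 4, which is a hint from the data and not from the design. CHAC1, at 7 to 15 reads per library, was limited by depth.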
